A study of Homo sapiens with 12 samples.

Results

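Integrins and laminins are the receptors and the basement membrane proteins through which a cell holds on to its surroundings. Their 38 genes were followed here in A375 melanoma cells under 2 drugs and their combination. The members are the protein-coding genes whose symbol is ITGA or ITGB followed by a number or letter, or LAMA, LAMB or LAMC followed by a number, with ITGBL1 and the ITGB1BP and ITGB3BP genes left out. They comprise 18 integrin alpha, 8 integrin beta and 12 laminin genes among the 58347 genes of the count tables. ITGA2B, whose symbol carries a number and a letter, was counted in, and without it there are 37 members. Of the 38 genes, 32 passed the filter on low counts (15 alpha, 6 beta and 11 laminin genes), out of 16740 genes of all kinds that passed.

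A375 is an established human melanoma line that carries mutant BRAF. Poly(A) RNA was sequenced in 12 samples, 3 each with DMSO (the vehicle), tretinoin (all-trans retinoic acid, a ligand of nuclear retinoic acid receptors), vemurafenib (an inhibitor of mutant BRAF) or vemurafenib plus tretinoin, called the combination below. The labels give 5 µM and 8 h for every sample, DMSO included, so the concentration of each drug within the combination is taken as labelled. All 4 groups are samples of 1 cell line, and p-values cover only the spread between those samples. In bulk RNA, fewer cells that express a gene and less of its RNA per cell cannot be told apart.

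An integrin is a pair of 1 alpha and 1 beta subunit in the plasma membrane. The alpha subunit largely sets what the receptor binds, such as collagen, laminin or proteins with an RGD motif, and the beta tail connects to actin through talin and kindlin. Laminins are cross-shaped trimers of an alpha, a beta and a gamma chain that build basement membranes. In melanoma, integrins that contain the alpha v and beta 3 subunits have long been linked to invasive growth, and alpha 4 pairs with beta 1 to bind VCAM1 and fibronectin.

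The total count per sample ran from 13510235 to 21534377, and the 38 genes took 0.291% to 0.454% of it. Genes known to respond to each drug were checked first. DUSP6, a feedback target of the MAPK pathway, averaged 122 CPM (counts scaled to a common library total) with DMSO and 1.81 with vemurafenib, and DHRS3, a retinoid-induced enzyme, averaged 20.8 with DMSO and 156 with tretinoin. DHRS3 also averaged 69.2 with vemurafenib and 402 with the combination. The other retinoid-response genes checked were low with DMSO and tretinoin, CYP26A1 at 0.287 and 0.408 and RARB at 1.35 and 2.47. Neither had an adjusted p under 0.05 between these groups in edgeR's quasi-likelihood test (0.633 and 0.101). RARB averaged 9.47 with vemurafenib and 22.1 with the combination, log2 fold changes of 2.80 and 4.02 against DMSO. CYP26A1 averaged 0.298 and 0.662 in these groups, with 1.20 for the combination against DMSO (adjusted p = 0.0496). Of the 10 melanoma and melanocyte markers, 6 passed the filter, MITF among them at 245 to 658 counts, whereas SOX10 was at 0 in every sample and TYR did not exceed 1 count. The 10 summed to 428 to 518 CPM with DMSO, 449 to 551 with tretinoin, 374 to 393 with vemurafenib and 351 to 383 with the combination, with AXL the largest part of them. The 5 keratinocyte or epithelial markers summed to 12.6 to 17 CPM with DMSO, 10.3 to 15.2 with tretinoin, 29.6 to 32.3 with vemurafenib and 26.9 to 36.6 with the combination, mostly KRT14, while EPCAM, CDH1 and TP63 did not pass the filter. The 4 fibroblast markers summed to 2.97 to 3.22, 2.74 to 4.4, 5.97 to 6.55 and 5.34 to 5.89 CPM in the same order. The part of such RNA in the changes with vemurafenib below was not tested.

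To set the starting point, the members were ranked in DMSO by their level per length, which is TMM-normalized CPM per kilobase of exon. The highest were ITGB1, the beta subunit shared by most alpha chains, at 68.3 ± 3.64 (SD, n = 3), LAMB1 at 66.1 ± 4.24, LAMC1 at 66 ± 5.11 and ITGA3 at 65.1 ± 4.83. The values of these 4 genes overlapped. ITGB5 followed at 46.8 ± 1.69 and ITGA6 at 35.9 ± 1.83, each apart from its neighbours in the order. With the longest transcript in place of all exons as the length, ITGA3 came first at 117 and ITGB1 second at 108. The laminin-binding alpha gene ITGA3 thus stood beside the beta 1 gene at the top, together with 1 beta and 1 gamma chain of laminin, and ITGA6 came below them and below ITGB5. Among the laminin alpha chains LAMA4 was highest at 12.9 ± 0.804 per length, and LAMA5 followed at 5.65 ± 0.841. ITGB3 and ITGA4, the genes on which much of the tretinoin result rests, had 6.97 ± 0.407 and 6.5 ± 0.551, and their values overlapped. Of the exon bases of ITGB3, 51.6% lie also in the gene AC068234.1 on the same strand. Fragments within both genes were assigned to neither, so its level per length is too low by an unknown amount.

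**Figure D1:**
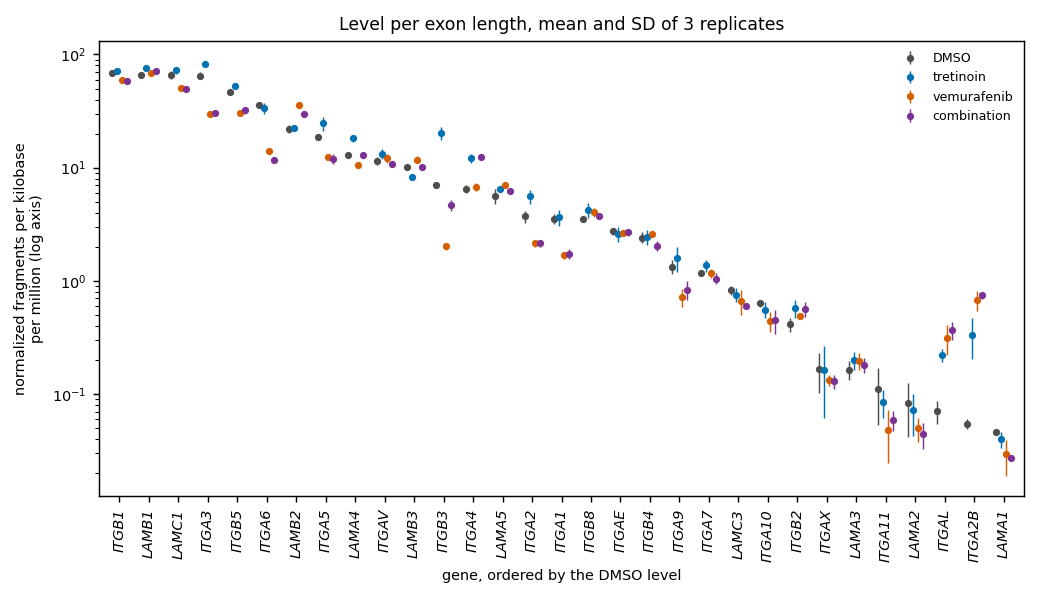
Level per exon length (TMM-normalized CPM per kilobase, log axis) of 31 of the 32 members that passed the filter, ordered by their DMSO mean; points are means and bars SDs of 3 replicates in each of the 4 groups. ITGB1, LAMB1, LAMC1 and ITGA3 lie at 65.1 to 68.3 with DMSO, and ITGB3 spreads from 2.02 with vemurafenib to 20.3 with tretinoin.

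Each treatment was compared with DMSO, and the combination with each single drug, in a single model of all genes. A gene was called where its adjusted p from edgeR's quasi-likelihood test was under 0.05. With vemurafenib, 5 of the 32 members rose and 14 fell, beside 26.4% of all tested genes called up and 26.3% called down. Their median log2 fold change was -0.29, against 0.02 over all tested genes. With the combination, 5 rose and 13 fell, beside 27.1% and 26.5% of all genes, and the median was -0.29 against 0.03. With tretinoin alone, 8 rose and 1 fell, beside 3.48% and 2.2% of all genes, with a median of 0.18 against 0.01. The combination differed from vemurafenib in 4 members that were higher and 1 that was lower, beside 2.27% and 2.2% of all genes. Against tretinoin alone, 4 members were higher in the combination and 14 lower, beside 24.1% and 25% of all genes. These comparisons share their DMSO, vemurafenib or combination samples and are therefore not separate pieces of evidence.

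Of the 21 integrin genes that passed, 2 rose and 11 fell with vemurafenib, 4 rose and 10 fell with the combination, and 7 rose with tretinoin. Of the 11 laminin genes, 3 rose and 3 fell with vemurafenib, 1 rose and 3 fell with the combination, and 1 rose and 1 fell with tretinoin. Over all tested genes 26.4% rose and 26.3% fell with vemurafenib, 27.1% and 26.5% with the combination, and 3.48% and 2.2% with tretinoin. The laminin split with vemurafenib was near those shares. The 3 values of the treated group lay all above or all below those of DMSO in 12 members with tretinoin, 19 with vemurafenib and 22 with the combination, while over all genes this held for 24.2%, 61.9% and 61.4%. For the combination and vemurafenib alone it was 10 members, and 24.2% of all genes. The counts depended on the scaling. With library totals in place of TMM, the median of all genes moved up. The shift was 0.20 in vemurafenib against DMSO and 0.16 in the combination against DMSO. The split of members became 9 up and 9 down with vemurafenib and 7 up and 10 down with the combination. The share of all genes called was not computed with library totals, so these counts have no background beside them. The rises added with vemurafenib were ITGA4, ITGAV, ITGB8 and LAMB1 and the falls lost were ITGA10, ITGA11, ITGB1, LAMA4 and LAMC1. With tretinoin ITGB5 and LAMB1 were added and LAMB3 lost. With the combination LAMA5 and LAMB1 were added and ITGA10, ITGB1 and LAMC3 lost. No member called with TMM changed direction with library totals.

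**Figure D2:**
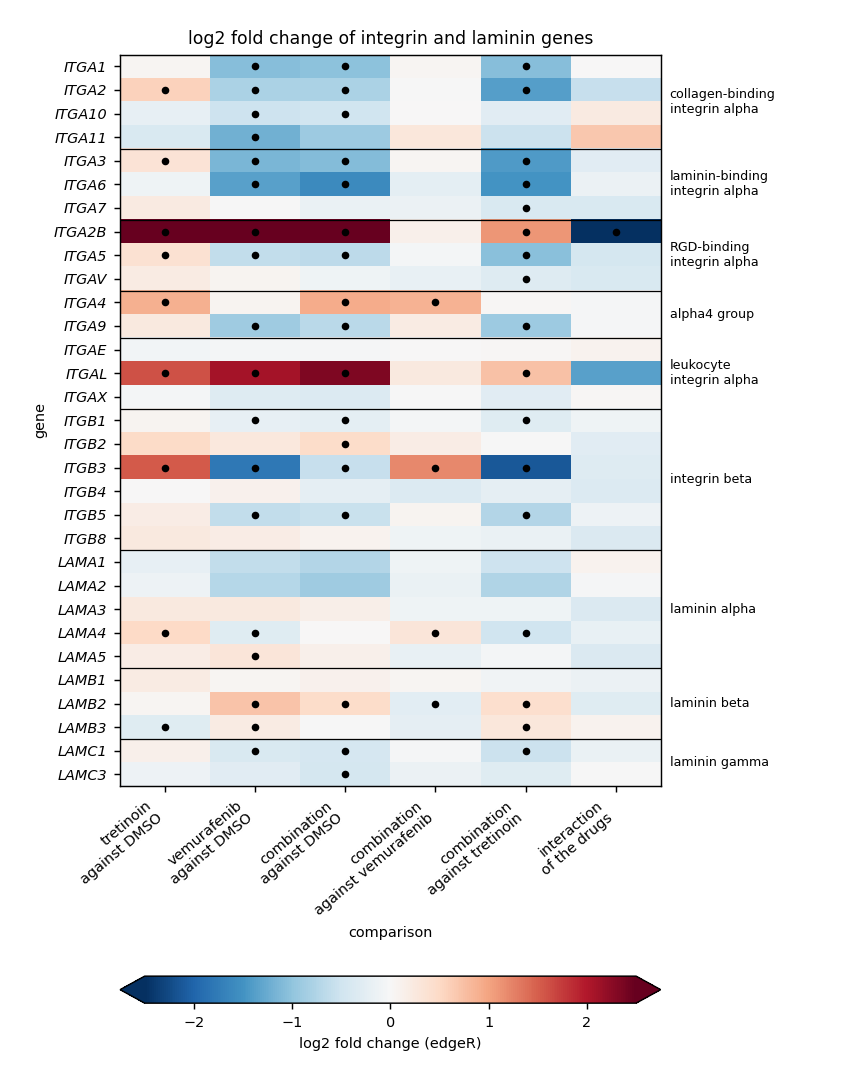
Log2 fold change (colour, limited to 2.5 in either direction) of 31 of the 32 tested members in 6 comparisons, grouped by subunit class; a dot marks an adjusted p under 0.05 in edgeR's quasi-likelihood test. Over all 32 members 14 fell and 5 rose with vemurafenib, with tretinoin 1 fell and 8 rose, and ITGB3 has opposite signs in these 2 columns. With library totals in place of TMM 9 of the 32 rose and 9 fell with vemurafenib, and the share of all genes was not computed.

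With vemurafenib all 4 collagen-binding alpha genes were called down, as were the more abundant laminin-binding ones. The calls of the collagen-binding genes ITGA10 and ITGA11 were not steady. ITGA3 and ITGA6 encode the alpha chains of the main laminin receptors. ITGA3 had 10584, 11788 and 12242 normalized counts in the 3 DMSO samples, 15228, 14820.5 and 13737 with tretinoin, 5133, 5350.2 and 5239 with vemurafenib and 5156, 5381 and 5764 with the combination. All 6 samples with vemurafenib, alone or combined, were below all DMSO samples, and all 3 tretinoin samples were above them. The log2 fold change of ITGA3 was -1.14 (adjusted p = 9.43e-10, SE 0.074) with vemurafenib and -1.09 (adjusted p = 1.56e-09, SE 0.074) with the combination. ITGA6 had 3996, 4315 and 4407 normalized counts with DMSO, 4434, 3711 and 3723 with tretinoin, 1669, 1770.1 and 1543 with vemurafenib and 1382, 1413 and 1401 with the combination. Tretinoin and DMSO overlapped, and the 6 samples with vemurafenib lay far below both. The change of ITGA6 was -1.35 (adjusted p = 2.35e-10, SE 0.079) with vemurafenib and -1.60 (adjusted p = 2.39e-11, SE 0.079) with the combination, a 3.03-fold fall. ITGA7, the third laminin-binding chain and a muscle receptor, had 135 ± 0.9 (SD, n = 3) normalized counts with DMSO and 134 ± 12 with vemurafenib and was not called (-0.00 (adjusted p = 0.981, SE 0.13)).

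ITGA1 and ITGA2, the alpha chains of the principal collagen receptors, moved alike with vemurafenib and differently with tretinoin. ITGA1 had 1059, 1246 and 1259 normalized counts with DMSO, 1443, 1172 and 1063 with tretinoin, 577, 597 and 522 with vemurafenib and 512, 627 and 612 with the combination. It was lower in every sample that had received vemurafenib, while tretinoin overlapped DMSO. Its log2 fold change was -1.07 (adjusted p = 3.06e-07, SE 0.11) with vemurafenib and -1.02 (adjusted p = 4.61e-07, SE 0.11) with the combination. ITGA2 had 488, 496 and 608 normalized counts with DMSO, 909, 807 and 682 with tretinoin, 329, 306 and 286 with vemurafenib and 289, 302 and 328 with the combination. The tretinoin samples were all above DMSO and the vemurafenib and combination samples all below it, with the latter groups overlapping. ITGA2 changed by 0.58 (adjusted p = 0.00342, SE 0.11) with tretinoin, -0.79 (adjusted p = 1.56e-05, SE 0.11) with vemurafenib and -0.79 (adjusted p = 1.37e-05, SE 0.11) with the combination. Between the combination and vemurafenib its log2 difference was 0.00, with a 95% interval of -0.23 to 0.23.

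The other collagen-binding genes were near the lower end of what was counted. ITGA11 had 9.3, 31.7 and 24.8 normalized counts with DMSO, 13.2, 22.1 and 14.8 with tretinoin, 4.7, 13.9 and 9.8 with vemurafenib and 8.9, 13.4 and 12.3 with the combination. The DMSO samples spread over more than the difference between groups, so the groups overlapped. Its change of -1.19 (adjusted p = 0.0298, SE 0.44) with vemurafenib was no longer called with library totals in place of TMM (adjusted p = 0.0616), nor without any 1 of DMSO replicates 2 and 3 and vemurafenib replicates 1 and 3, with adjusted p of up to 0.155. ITGA10, a cartilage collagen receptor, went from 72.8 ± 5.1 normalized counts with DMSO to 50.4 ± 10 with vemurafenib (-0.52 (adjusted p = 0.0413, SE 0.20)). This call ended without any 1 of DMSO replicates 1 and 3 and vemurafenib replicates 2 and 3, with adjusted p of up to 0.157, and with library totals (0.202). It was also lost with at least 10 counts in every sample (0.0562) and with a replicate block (0.0594).

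Of the RGD-binding and alpha 4 groups, ITGA5 and ITGA9 fell with vemurafenib and ITGAV was not called. ITGA5, the fibronectin receptor chain, had 2635, 2508 and 2589 normalized counts with DMSO, 3887, 3241 and 2981 with tretinoin, 1692, 1735 and 1607 with vemurafenib and 1439, 1679 and 1761 with the combination. The ordering was the one seen for ITGA3, with tretinoin above DMSO and both vemurafenib groups below. The log2 fold change of ITGA5 was -0.62 (adjusted p = 2.05e-05, SE 0.091) with vemurafenib and -0.66 (adjusted p = 9.05e-06, SE 0.091) with the combination. ITGA9, which pairs with beta 1, averaged 199.9 ± 27.7 normalized counts with DMSO and 107 ± 18.5 with vemurafenib, a change of -0.88 (adjusted p = 0.000556, SE 0.18). ITGAV, the alpha v chain that pairs with several beta subunits, averaged 1707 ± 136 with DMSO, 1972 ± 206 with tretinoin, 1799 ± 154 with vemurafenib and 1585 ± 48.8 with the combination. Its change was 0.08 (adjusted p = 0.472, SE 0.085) with vemurafenib and -0.11 (adjusted p = 0.297, SE 0.085) with the combination.

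**Figure D3:**
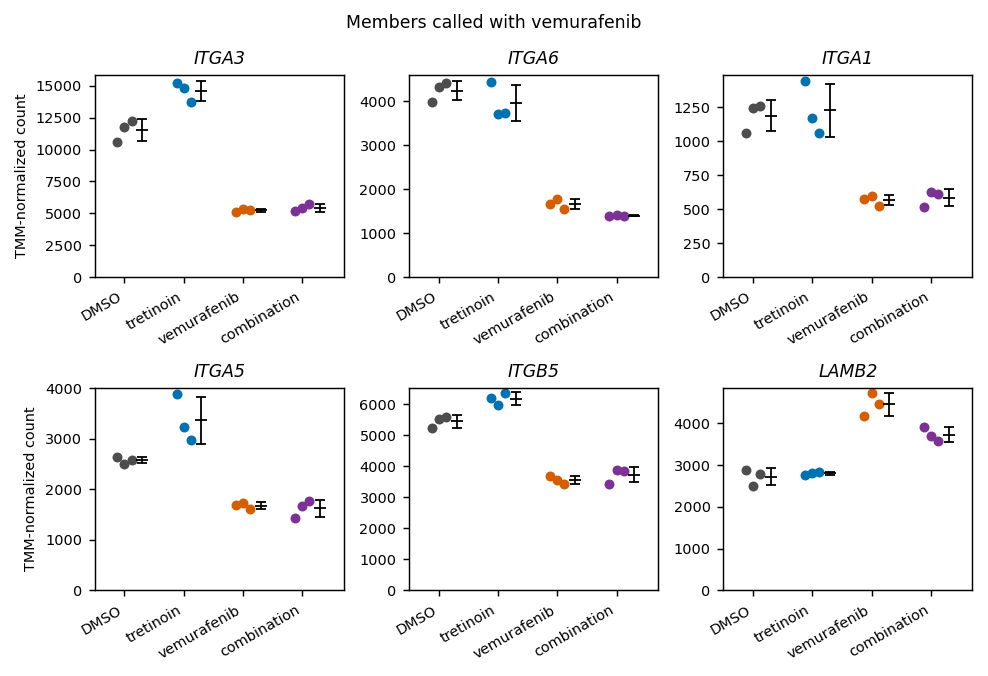
TMM-normalized counts (linear axes from 0) of ITGA3, ITGA6, ITGA1, ITGA5, ITGB5 and LAMB2 in each of the 12 samples; coloured points are samples, and the black mark and bar give the mean and SD of 3 replicates. The vemurafenib and combination samples lie below the DMSO samples for all of these genes except LAMB2, for which they lie above.

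Among the beta subunits, ITGB3 had the largest fall with vemurafenib, and ITGB5 and ITGB1 fell less. ITGB3 had 559, 519 and 583 normalized counts with DMSO, 1848, 1505 and 1475 with tretinoin, 169, 165 and 148 with vemurafenib and 323, 390.4 and 398 with the combination. The 4 groups did not overlap one another: tretinoin was highest, then DMSO, then the combination, then vemurafenib. The change with vemurafenib was -1.78 (adjusted p = 7.09e-10, SE 0.11), a 3.44-fold fall. ITGB5, another partner of alpha v, averaged 5449 ± 197 with DMSO, 3564 ± 134 with vemurafenib and 3724 ± 241 with the combination (-0.61 (adjusted p = 6.95e-07, SE 0.067) and -0.55 (adjusted p = 2.37e-06, SE 0.067)). ITGB1 averaged 7416 ± 396 with DMSO and 6475 ± 284 with vemurafenib (-0.20 (adjusted p = 0.0168, SE 0.064)), and with library totals in place of TMM its change was 0.00 (adjusted p = 0.993). Without DMSO replicate 3 or vemurafenib replicate 3 the adjusted p was up to 0.0843. ITGB1 also shares 609 bases at 98% identity or more with the pseudogene AC022149.1, between which reads could be split. ITGB8 and ITGB4 were not called, at 0.19 (adjusted p = 0.101, SE 0.096) and 0.10 (adjusted p = 0.462, SE 0.11) with vemurafenib.

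The laminin chains went in both directions with vemurafenib, 3 of 11 up and 3 down. These shares were near the 26.4% and 26.3% of all tested genes. LAMB2, the beta chain of laminins of vessel walls and synapses, had 2893, 2489 and 2782 normalized counts with DMSO, 2758, 2803 and 2842 with tretinoin, 4163, 4734 and 4454 with vemurafenib and 3912, 3698 and 3564 with the combination. It was highest with vemurafenib, lower with the combination and lowest with DMSO and tretinoin, which overlapped. LAMB2 rose by 0.71 (adjusted p = 2.69e-07, SE 0.072) on the log2 scale with vemurafenib and by 0.45 (adjusted p = 4.43e-05, SE 0.072) with the combination.

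LAMB3, a beta chain of epithelial laminins, moved little. It had 806, 914 and 883 normalized counts with DMSO, 650.5, 718 and 729.5 with tretinoin, 921, 1014 and 1056 with vemurafenib and 904, 842 and 826 with the combination. Tretinoin was below DMSO and vemurafenib above it by small margins, and the combination overlapped DMSO. Neither difference was steady: -0.31 (adjusted p = 0.0288, SE 0.079) with tretinoin was lost with library totals (adjusted p = 0.077) and in a fit of those groups alone (0.132), and 0.20 (adjusted p = 0.0375, SE 0.077) with vemurafenib without the filter (0.205). The first call ended without any 1 of DMSO replicates 2 and 3 and tretinoin replicates 1 and 2, with adjusted p of up to 0.142. The second was kept only without DMSO replicate 2, tretinoin replicate 1 or 3, vemurafenib replicate 1 or combination replicate 1, with up to 0.168 in the other fits. LAMA3, an alpha chain of epithelial laminins, averaged 43.7 ± 8.1 with DMSO and 52.3 ± 9.3 with vemurafenib and was not called. LAMC1, the gamma chain of most laminins, averaged 10030.3 ± 777 with DMSO, 7705 ± 397 with vemurafenib and 7533 ± 466 with the combination (-0.38 (adjusted p = 0.000549, SE 0.078) and -0.41 (adjusted p = 0.000247, SE 0.078)). With library totals the first of these was -0.18 (adjusted p = 0.0526). LAMB1, its usual partner, was not called at 0.06 (adjusted p = 0.51, SE 0.068). LAMA5, a widely expressed alpha chain, averaged 1459.9 ± 217 with DMSO and 1809 ± 76.5 with vemurafenib (0.31 (adjusted p = 0.00705, SE 0.088)) and 1601 ± 39 with the combination (0.13 (adjusted p = 0.219, SE 0.088)).

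Tretinoin alone raised ITGB3 and ITGA4 the most among the abundant members. ITGB3 went up by 1.54 (adjusted p = 4.85e-08, SE 0.098) on the log2 scale, a 2.9-fold rise from the counts given above. ITGA4 had 837, 981 and 964 normalized counts with DMSO, 1913, 1672 and 1602 with tretinoin, 1020.2, 1019 and 875 with vemurafenib and 1753, 1838 and 1722 with the combination. The 6 samples with tretinoin, alone or combined, were all above the 6 without it, and within each set the groups overlapped. ITGA4 rose by 0.90 (adjusted p = 5.04e-06, SE 0.086) with tretinoin and by 0.93 (adjusted p = 6.71e-08, SE 0.085) with the combination, while vemurafenib alone gave 0.07 (adjusted p = 0.532, SE 0.086), which with library totals became 0.26 (adjusted p = 0.0223). LAMA4, the alpha chain of endothelial and melanoma laminins, had 2562, 2662 and 2890.2 normalized counts with DMSO, 4115, 3703 and 3628 with tretinoin, 2267, 2281 and 2050.0 with vemurafenib and 2544, 2846 and 2747 with the combination. Tretinoin was highest, vemurafenib lowest, and the combination overlapped DMSO. The change of LAMA4 was 0.49 (adjusted p = 0.000512, SE 0.075) with tretinoin, -0.30 (adjusted p = 0.00284, SE 0.075) with vemurafenib and 0.00 (adjusted p = 0.969, SE 0.074) with the combination. The fall with vemurafenib was -0.10 with library totals (adjusted p = 0.286).

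ITGA2, ITGA3 and ITGA5 also rose with tretinoin, by 0.58 (SE 0.11), 0.34 (SE 0.073) and 0.39 (SE 0.090) on the log2 scale. The adjusted p-values were 0.00342, 0.0106 and 0.0178. When only the DMSO and tretinoin samples were fitted, those of ITGA3 and ITGA5 became 0.0782 and 0.0721, and that of ITGA5 was 0.09 without DMSO replicate 2. In ITGA2, ITGA3, ITGA5, ITGB3 and LAMA4, then, the tretinoin samples all lay above DMSO and the vemurafenib samples all below it, and in LAMB3 the order was the reverse. The samples of ITGB5 lay in the same order as those of ITGA3, but it was not called with tretinoin (0.18 (adjusted p = 0.114, SE 0.067)). Both comparisons rest on the same 3 DMSO samples.

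Markers of endothelial cells were measured in the same samples. The 5 endothelial genes summed to 8.51 to 12 CPM with DMSO, 19.3 to 25 with tretinoin, 6.97 to 8.1 with vemurafenib and 15.7 to 17.2 with the combination. Each of the 5 had at least 1 count in every sample. CDH5, the vascular cadherin, averaged 4.56 CPM with DMSO, 13.4 with tretinoin, 0.137 with vemurafenib and 3.15 with the combination, while TEK made up most of the sum with the combination at 10.2. CDH5 had a log2 fold change of 1.54 with tretinoin, -4.96 with vemurafenib and 4.43 for the combination against vemurafenib, while PECAM1 was not called in any of these. The list did not move as one. With vemurafenib KDR changed by -2.11 (adjusted p = 1.45e-06), whereas VWF and TEK rose by 2.13 (adjusted p = 0.00132) and 1.94 (adjusted p = 2.81e-06). In the combination against vemurafenib TEK was higher by 1.44 (adjusted p = 2.19e-05), and KDR and VWF were not called, at -0.16 and -0.09. The part of such RNA in the changes of ITGB3, ITGA4 and LAMA4 was not tested.

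**Figure D4:**
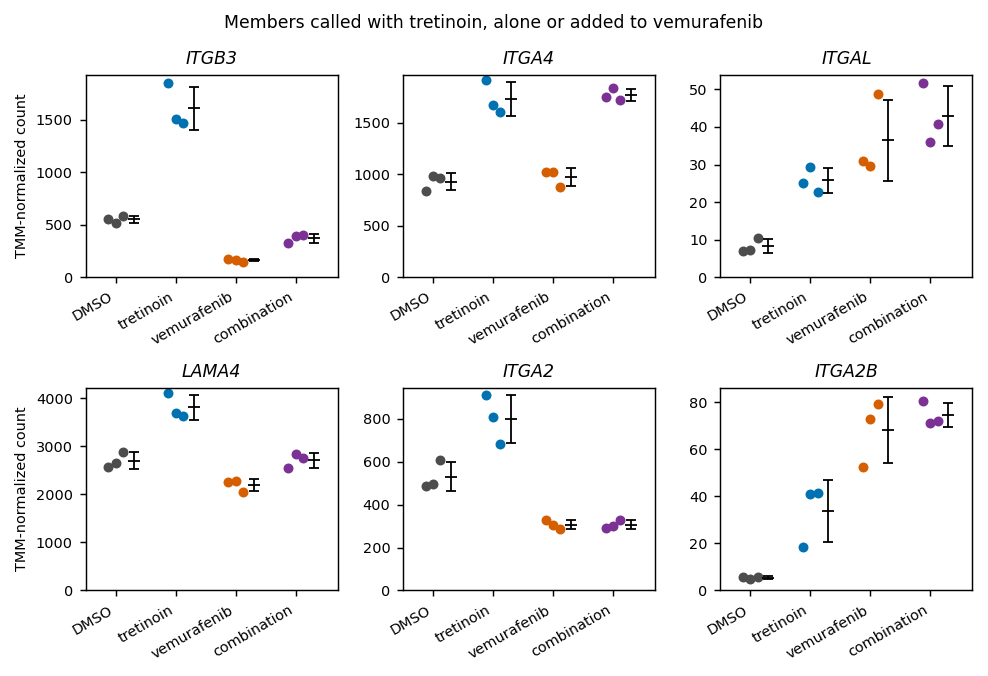
TMM-normalized counts (linear axes from 0) of ITGB3, ITGA4, ITGAL, LAMA4, ITGA2 and ITGA2B in each of the 12 samples; coloured points are samples, and the black mark and bar give the mean and SD of 3 replicates. ITGA4 is high in both groups with tretinoin, whereas ITGB3 is highest with tretinoin alone and lowest with vemurafenib alone.

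The comparison of the combination with vemurafenib asks what tretinoin adds once BRAF is inhibited. ITGB3 was 2.31-fold higher in the combination (1.21 (adjusted p = 2.5e-06, SE 0.11)), and ITGA4 1.82-fold higher (0.86 (adjusted p = 3.56e-06, SE 0.084)). LAMA4 was higher by 0.30 (adjusted p = 0.0232, SE 0.075) on the log2 scale, and LAMB2 differed by -0.26 (adjusted p = 0.0477, SE 0.071). For these 4 genes the 3 combination samples lay wholly on 1 side of the 3 vemurafenib samples. The LAMA4 call was lost with library totals (adjusted p = 0.0685) and without any of vemurafenib replicates 1 to 3 or combination replicates 2 and 3, with adjusted p of up to 0.141. The LAMB2 call was lost without the filter (0.18), with a minimum of 10 counts in every sample (0.051) and in every fit that left out 1 library except those without DMSO replicate 1 or 2 or tretinoin replicate 1, with up to 0.273.

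The other falls under vemurafenib showed no called difference when tretinoin was added. The log2 difference between combination and vemurafenib was 0.05 for ITGA3 (95% interval -0.09 to 0.20), 0.05 for ITGA1 (-0.17 to 0.26), -0.04 for ITGA5 (-0.22 to 0.13) and 0.06 for ITGB5 (-0.07 to 0.20). For ITGA6 it was -0.25 (adjusted p = 0.0976, SE 0.079), which passed the threshold when only these groups were fitted (adjusted p = 0.0108).

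In the interaction, which asks whether tretinoin changed a gene by a different amount in the presence of vemurafenib, 1 member, ITGA2B, was called down, beside 0.424% of all genes. ITGA2B had -2.50 (adjusted p = 0.0113, SE 0.45), lost without DMSO replicate 2 (adjusted p = 0.0521). For ITGB3 and ITGA4 the interaction was -0.33 (adjusted p = 0.303, SE 0.15) and -0.03 (adjusted p = 0.924, SE 0.12). The 95% interval of the ITGA4 interaction ran from -0.27 to 0.20. ITGA2 had -0.58 (adjusted p = 0.105, SE 0.16) and was called under DESeq2 with a beta prior (0.0452) and without the filter (0.0229).

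Against tretinoin alone, the combination was lower in ITGB3 by -2.11 (adjusted p = 1.5e-11, SE 0.10), in ITGA6 by -1.50 (adjusted p = 6.27e-11, SE 0.079), in ITGA3 by -1.43 (adjusted p = 4.97e-11, SE 0.074) and in ITGA2 by -1.38 (adjusted p = 1.64e-08, SE 0.11), all as log2 fold changes. ITGAV and ITGA7, which no comparison with DMSO had called, were lower here at -0.31 (adjusted p = 0.00511, SE 0.085) and -0.38 (adjusted p = 0.02, SE 0.13). With library totals these became -0.23 (adjusted p = 0.0516) and -0.29 (0.0817). The ITGA7 call also ended without tretinoin replicate 3 or combination replicate 2, with adjusted p of up to 0.0951. The members higher in the combination than with tretinoin were ITGA2B, ITGAL, LAMB2 and LAMB3, at 1.10, 0.72, 0.41 and 0.29. The ITGAL difference was lost without tretinoin replicate 3 or combination replicate 1, with adjusted p of up to 0.108.

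The largest fold changes belonged to a pair of genes of blood cells with few counts. ITGA2B, the platelet fibrinogen receptor chain that pairs with beta 3, had 5.8, 4.9 and 5.7 normalized counts with DMSO, 18.5, 41 and 41.6 with tretinoin, 52.6, 73 and 79.3 with vemurafenib and 80.5, 71.4 and 72 with the combination. Every treated sample was above every DMSO sample, and the vemurafenib and combination groups overlapped. Its log2 fold change was 2.62 (adjusted p = 0.000383, SE 0.38) with tretinoin, 3.60 (adjusted p = 1.1e-07, SE 0.34) with vemurafenib and 3.73 (adjusted p = 5.33e-08, SE 0.33) with the combination, a 13.3-fold rise. Even so its level per length reached only 0.744 ± 0.0511 with the combination, between those of ITGA10 at 0.637 ± 0.0442 and LAMC3 at 0.823 ± 0.0704 with DMSO. ITGAL, the alpha L chain of a leukocyte receptor for ICAM1, had 7, 7.3 and 10.5 normalized counts with DMSO, 25.2, 29.4 and 22.8 with tretinoin, 31, 29.6 and 48.9 with vemurafenib and 51.7, 36.1 and 40.9 with the combination. All treated samples were above DMSO, and the log2 fold changes were 1.60 (adjusted p = 0.0112, SE 0.35), 2.08 (adjusted p = 3.68e-05, SE 0.32) and 2.33 (adjusted p = 7.48e-06, SE 0.31). The first of these was lost without DMSO replicate 2 (adjusted p = 0.0573). Of the exon bases of ITGAL, 9.6% overlap genes on the opposite strand, and counting ignored strand. ITGB2, the beta partner of ITGAL, averaged 50.8 ± 7.4 normalized counts with DMSO and 69.7 ± 10.8 with the combination (0.46 (adjusted p = 0.0487, SE 0.19)), and DESeq2 without a beta prior gave 0.45 (adjusted p = 0.0722). Leaving out 1 library ended this call in 8 of 12 fits, with adjusted p of up to 0.195, and kept it only without DMSO replicate 2, tretinoin replicate 1 or 2 or combination replicate 2.

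A leukocyte marker moved with these genes. PTPRC, which encodes CD45, averaged 1.11 CPM with DMSO, 3.03 with tretinoin, 2.8 with vemurafenib and 3.74 with the combination. The 5 leukocyte genes, ITGAL among them, summed to 1.42 to 3.31 CPM with DMSO, 3.78 to 6.16 with tretinoin, 4.88 to 6.61 with vemurafenib and 5.71 to 8.14 with the combination. CD3E and CD14 did not pass the filter, with at most 10 counts in a sample. The part of such RNA in the rise of ITGA2B and ITGAL was not tested.

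The make-up of the integrin and laminin RNA shifted accordingly. Summed per length, integrin alpha genes came to 151 ± 8.42 (SD, n = 3) with DMSO, 182 ± 14.6 with tretinoin, 84.9 ± 3.47 with vemurafenib and 87.8 ± 3.05 with the combination. The laminin-binding chains ITGA3, ITGA6 and ITGA7 made up 67.5% ± 0.71 of all alpha RNA with DMSO, 64.4% ± 1.2 with tretinoin, 52.8% ± 0.83 with vemurafenib and 49.6% ± 0.69 with the combination. The share of ITGA4 went from 4.29% ± 0.18 with DMSO to 14.1% ± 0.7 with the combination, and that of ITGAV from 7.59% ± 0.25 to 12.2% ± 0.58. A share can rise because the rest fell, and the ITGAV level itself was not called in either comparison with DMSO or with vemurafenib.

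Over ITGB3, ITGB5, ITGB6 and ITGB8, which are partners of alpha v (ITGB1, another partner shared with many alpha chains, was not counted), ITGB3 held 12.2% ± 0.68 with DMSO, 26.1% ± 2.3 with tretinoin, 5.52% ± 0.17 with vemurafenib and 11.5% ± 0.53 with the combination. ITGB5 held 81.7% ± 1.1, 68.5% ± 2.9, 83.5% ± 0.83 and 79.2% ± 0.33 in the same order, and ITGB8 6.15% ± 0.44, 5.4% ± 0.6, 11% ± 0.7 and 9.25% ± 0.23. The DMSO and combination samples overlapped in the share of ITGB3, at 11.4% to 12.7% and 10.9% to 12%. Fragments in the overlap of ITGB3 with AC068234.1, 51.6% of its exon bases, went uncounted. Its share is therefore too low, and those of ITGB5 and ITGB8 too high, by an unknown amount in every group. LAMA4 held 68.6% ± 2.9 of the laminin alpha RNA with DMSO, 73% ± 0.64 with tretinoin, 59.1% ± 1.3 with vemurafenib and 66.7% ± 1.6 with the combination. LAMB2 held 22.3% ± 0.95 of the beta RNA with DMSO, 30.8% ± 0.88 with vemurafenib and 26.9% ± 0.79 with the combination.

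Several members were tested and not called in any comparison with DMSO. ITGAE, the chain that binds E-cadherin, had log2 fold changes of -0.06, -0.04 and -0.02 with tretinoin, vemurafenib and the combination. ITGB4, the hemidesmosome subunit that pairs with ITGA6, had 0.00, 0.10 and -0.23, and ITGB8 0.25, 0.19 and 0.08. LAMA1, LAMA2, LAMA3 and ITGAX averaged between 7.9 and 52.8 normalized counts in every group, with standard errors of 0.22 to 0.43 on the log2 scale against DMSO, so that changes of that size were not detectable at this depth. LAMC3 averaged 113 ± 9.7 with DMSO and 83 ± 1.7 with the combination (-0.44 (adjusted p = 0.0385, SE 0.17)), which ended without any 1 of DMSO replicates 1 and 2 and combination replicates 1 to 3, with adjusted p of up to 0.111. The members that did not pass the filter were ITGA8, ITGAD, ITGAM, ITGB6, ITGB7 and LAMB4, with group means of 0 to 7.1 normalized counts. ITGB6, an epithelial partner of alpha v, was at 0 in all DMSO and vemurafenib samples. Of the exon bases of ITGB7, 42.1% also lie in ZNF740 on the opposite strand.

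The promoters of 4 members whose changes differed are shown, because ITGA4 and ITGA2B rose with tretinoin, ITGA2 rose with tretinoin and fell with vemurafenib, and LAMB2 rose with vemurafenib. Each is the 250 bases before the transcription start in RefSeq (GRCh38.p14), 5′ to 3′ on the strand of the gene. Capitals mark retinoid core motifs, which were searched as AGGTCA with AGTTCA as one variant and with GGGTCA as the other, and the GC box, searched as GGGCGG, on either strand.
ITGA4, chr2:181457136-181457385, plus strand: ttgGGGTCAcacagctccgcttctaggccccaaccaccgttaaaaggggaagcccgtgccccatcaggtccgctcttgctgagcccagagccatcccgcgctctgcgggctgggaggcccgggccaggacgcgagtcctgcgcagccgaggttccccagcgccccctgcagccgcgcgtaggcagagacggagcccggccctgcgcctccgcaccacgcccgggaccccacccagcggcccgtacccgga
ITGA2B, chr17:44389650-44389899, minus strand: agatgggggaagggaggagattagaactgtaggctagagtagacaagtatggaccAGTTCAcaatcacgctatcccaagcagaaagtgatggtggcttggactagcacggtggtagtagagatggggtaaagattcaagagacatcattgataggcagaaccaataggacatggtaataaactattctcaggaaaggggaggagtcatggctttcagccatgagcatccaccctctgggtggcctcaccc
ITGA2, chr5:52989102-52989351, plus strand: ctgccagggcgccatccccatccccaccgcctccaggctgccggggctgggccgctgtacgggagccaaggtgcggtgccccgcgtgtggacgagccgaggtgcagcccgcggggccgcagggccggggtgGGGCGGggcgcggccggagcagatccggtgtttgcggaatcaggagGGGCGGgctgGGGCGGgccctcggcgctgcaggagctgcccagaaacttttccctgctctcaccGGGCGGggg
LAMB2, chr3:49133051-49133300, minus strand: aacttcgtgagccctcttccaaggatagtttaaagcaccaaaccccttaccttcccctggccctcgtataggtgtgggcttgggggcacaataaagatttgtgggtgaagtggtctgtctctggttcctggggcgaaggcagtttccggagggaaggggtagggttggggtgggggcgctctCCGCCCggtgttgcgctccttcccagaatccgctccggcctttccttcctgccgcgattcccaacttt

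A retinoid core motif stood in the windows of ITGA4 and ITGA2B and a GC box in those of ITGA2 and LAMB2. The 250 bases before a start of ITGA6, which fell with vemurafenib, held neither motif and are not printed. Over the 26 members with a RefSeq promoter (250 bases before to 50 after the start), 8 held a retinoid core motif on either strand, beside 33.2% of 35116 promoters. Besides ITGA4 and ITGA2B the holders were ITGAE, ITGAM, ITGAV, ITGB1, ITGB5 and LAMA2. Of these, ITGAM did not pass the filter and the rest were not called with tretinoin. ITGA2 and ITGA5, which rose with tretinoin, held none. No member held a pair of them 1, 2 or 5 bases apart in the same direction, which 0.194% of promoters had. The AP-1 motif TGANTCA was in ITGA5, LAMA3 and LAMB3 (7.71% of promoters), an ETS motif, searched as CCGGAAGT and also as ACAGGAAG, in ITGB5 (6.96%), a GC box in 14 members (45% of promoters) and a CArG box in ITGB6 (1.29%). Some members have several promoter windows and were counted where any of them held the motif, while the percentages are over single promoters. The units therefore differ. These are matches of letters in a short window and say nothing about binding.

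The genes that work with integrins and laminins were counted in the same way. Of 44 adhesome genes, which link integrin tails to actin and to signalling, 43 passed the filter, and 9 rose and 20 fell with vemurafenib, 10 rose and 23 fell with the combination, and 3 rose and 4 fell with tretinoin. With vemurafenib this was 20.9% up and 46.5% down, beside 26.4% and 26.3% of all tested genes, and with the combination 23.3% and 53.5%, beside 27.1% and 26.5%. With tretinoin it was 6.98% and 9.3%, beside 3.48% and 2.2%. The median log2 fold change of the list was -0.13 with vemurafenib and -0.25 with the combination, against 0.02 and 0.03 over all genes. The actin cross-linker ACTN1 had a log2 fold change of -1.62 (SE 0.071) with the combination, TNS4 -3.53 (SE 0.58) and FHL2 -1.20 (SE 0.086). FERMT3, the kindlin of blood cells, rose by 1.72 (SE 0.25), the kinase gene PTK2B by 1.59 (SE 0.20) and TNS3 by 1.01 (SE 0.086). FERMT3 was also called with tretinoin (1.21 (adjusted p = 0.0135, SE 0.27)) and with vemurafenib (1.40 (adjusted p = 0.000224, SE 0.26)), as ITGA2B and ITGAL were. In the combination against vemurafenib 2 adhesome genes were higher and 4 lower (4.65% and 9.3%, beside 2.27% and 2.2% of all genes). Among them were TES at 0.44 (SE 0.082), the paxillin relative TGFB1I1 at -0.53 (SE 0.074) and LIMS2 at -0.81 (SE 0.23). With library totals the adhesome counts became 16 up and 10 down with vemurafenib and 14 down with the combination. The shares of all genes were not computed under that scaling.

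Of 27 matrix ligand genes in the tables, 20 passed, and 8 rose and 6 fell with vemurafenib, 7 rose and 6 fell with the combination, and 3 rose and 2 fell with tretinoin. The falls, 30% of the list with either vemurafenib group, were near the 26.3% and 26.5% of all genes, and the rises were 40% and 35%, beside 26.4% and 27.1%. With tretinoin 15% rose and 10% fell, beside 3.48% and 2.2%. CCN1, a matricellular ligand of alpha v integrins, changed by -1.01 (SE 0.12) with tretinoin, -1.73 (SE 0.12) with vemurafenib and -2.62 (SE 0.12) with the combination, and THBS1 by -0.71 (SE 0.12), -1.35 (SE 0.13) and -2.08 (SE 0.13). In the combination against vemurafenib 2 ligand genes were higher and 4 lower (10% and 20%, beside 2.27% and 2.2% of all genes). CCN1 and THBS1 were lower, at -0.89 (adjusted p = 0.000114, SE 0.12) and -0.73 (adjusted p = 0.00132, SE 0.12). ICAM1, the ligand of the ITGAL receptor, fell by -0.95 (SE 0.098) with the combination, and FBN1, MADCAM1 and VWF rose by 1.09 (SE 0.094), 1.80 (SE 0.50) and 2.04 (SE 0.49). CCN2, related to CCN1, went the other way from it when tretinoin was added to vemurafenib, at 0.80 (adjusted p = 1.97e-05, SE 0.091), and EDIL3, a ligand of alpha v beta 3, was lower at -0.75 (adjusted p = 0.0299, SE 0.19).

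Of 33 genes of laminin receptors other than integrins and of the basement membrane, 31 passed, and 8 rose and 9 fell with vemurafenib, 10 rose and 9 fell with the combination, and 4 rose with tretinoin. The shares with vemurafenib, 25.8% up and 29% down, were near the 26.4% and 26.3% of all genes, and those with the combination were 32.3% and 29%, beside 27.1% and 26.5%. With tretinoin 12.9% rose, beside 3.48%. MATN2, a matrilin, rose by 4.91 (SE 0.24) with the combination, FRAS1 by 1.32 (SE 0.17) and NTN4, a laminin-related netrin, by 0.88 (SE 0.086). The heparan sulfate proteoglycan SDC1 changed by -1.05 (SE 0.072), PXDN by -0.96 (SE 0.15) and SDC3 by -0.76 (SE 0.084). TINAGL1, a laminin-binding basement membrane protein, had log2 fold changes of 1.39 (adjusted p = 7.16e-10, SE 0.068) with tretinoin, -1.81 (adjusted p = 7.91e-13, SE 0.070) with vemurafenib and 0.03 (adjusted p = 0.713, SE 0.067) with the combination. Against vemurafenib alone TINAGL1 was higher by 1.85 (adjusted p = 1.65e-11, SE 0.070) and MATN2 by 0.84 (SE 0.15), and SDC1 and AGRN were lower, at -0.51 (SE 0.072) and -0.26 (SE 0.066). With library totals the rises in this list became 15 with vemurafenib and 16 with the combination, and the shares of all genes were not computed.

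**Figure D5:**
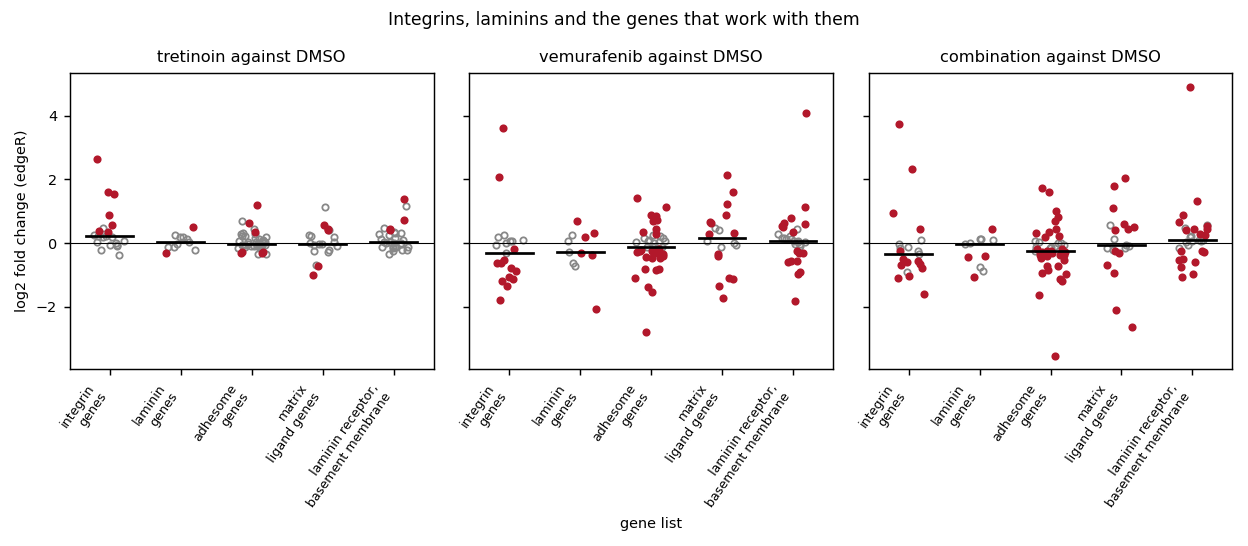
Log2 fold change of the integrin and laminin genes and of 3 lists of related genes in tretinoin, vemurafenib and the combination against DMSO; each circle is a gene that passed the filter, filled red where called by edgeR's quasi-likelihood test, and the black bar is the median. With TMM scaling 20 adhesome genes fell and 9 rose with vemurafenib, against 10 and 16 with library totals, for which the shares of all genes were not computed.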

How the data were processed

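Poly(A) RNA of 12 A375 samples was read in pairs of 150 bases. The authors aligned reads with STAR 2.5.3a to GRCh38.p10 and counted fragments per GENCODE 27 gene in union mode, ignoring strand, so fragments within overlapping genes went uncounted. The deposited values are raw counts, 13510235 to 21534377 per sample. A symbol was found for 58039 of the 58347 genes, and exon lengths came from GENCODE 29. Groups and replicate numbers came from the labels. In edgeR 4.0.16 (R 4.3.3), genes were filtered with filterByExpr by group and scaled by TMM, and a quasi-likelihood model without a block was fitted to all 12 samples (common dispersion 0.00653). P-values were adjusted by Benjamini-Hochberg over 16740 genes within each of 6 comparisons, with a threshold of 0.05. The standard error (SE) is the log2 fold change over the square root of F, and 95% intervals are 1.96 SE. The interaction is (combination - vemurafenib) - (tretinoin - DMSO). Normalized counts are counts divided by the TMM-scaled library size, times its mean.

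Alternatives were DESeq2 1.42.0 with and without a beta prior, other scalings and filters, the groups compared alone, a replicate block and leaving out each library. Per-sample values are given for members called by 1 or more on the log2 scale with vemurafenib or the combination, or called with tretinoin, in combination against vemurafenib or in the interaction; of the other lists, the 3 largest called rises and falls with the combination and up to 4 genes called against vemurafenib. Members and lists were chosen with earlier results of these data known. Replicates of a group differed by 2.59 to 22.4 times the sampling noise (chi-square per degree of freedom), so none is a mere second sequencing of another's library. Whether they came from separate cultures was not tested. Some genes that these rules select are not reported or drawn here, though counts over the lists include them. Raw reads and protein sequences were not used here.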

Additional observations from a re-analysis of the deposited data

Results flagged for a closer look

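In ITGA2B the effect of tretinoin differed between cells with and without vemurafenib by the interaction term of edgeR's quasi-likelihood model. The interaction was -2.50 (adjusted p = 0.0113, SE 0.45): tretinoin raised it by 2.62 (SE 0.38) without vemurafenib, and with it the difference was 0.13 (SE 0.21). Its DMSO samples had 4.9 to 5.8 normalized counts. Groups of 3 are too small for a check of single samples that stand apart.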

How the results depend on the processing

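No named member's log2 fold change that was called reversed its sign in an alternative. Counts of calls moved by over 1.5 times as follows, and the cause was not tested except where fewer samples were fitted. The share of all genes called was not computed in these settings. With library totals, members called with tretinoin became 0 down, with vemurafenib 9 up and 9 down, adhesome genes 0 down with tretinoin, 16 up and 10 down with vemurafenib and 14 down with the combination, and laminin receptor and basement membrane genes 15 up and 5 down with vemurafenib and 16 up with the combination. In fits of only the groups compared, there were 0 members down with tretinoin and 3 down in combination against vemurafenib, 0 adhesome genes down with tretinoin and 7 down in combination against vemurafenib, and with tretinoin 1 matrix ligand and 2 laminin receptor and basement membrane genes up. With at least 10 counts in every sample there were 3 members up with the combination, 2 up in combination against tretinoin, 0 down in combination against vemurafenib and 0 down in the interaction, and 1 laminin receptor and basement membrane gene up in combination against vemurafenib. Without the filter there were 0 members down in combination against vemurafenib and 2 down in the interaction, and 1 laminin receptor and basement membrane gene down in combination against vemurafenib. DESeq2 with and without a beta prior called 2 members down in the interaction, and leaving out ITGA2B gave 0.

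Leaving out 1 library at a time gave 6 to 9 members up and 0 to 1 down with tretinoin, 4 to 6 and 11 to 14 with vemurafenib, 4 to 5 and 11 to 14 with the combination, 3 to 4 and 0 to 3 in combination against vemurafenib, 3 to 4 and 13 to 15 in combination against tretinoin, and 0 to 1 and 0 to 2 in the interaction. Adhesome genes ranged from 2 to 6 up and 0 to 4 down with tretinoin and from 1 to 3 up and 1 to 8 down in combination against vemurafenib, matrix ligands from 1 to 4 up with tretinoin, and laminin receptor and basement membrane genes from 2 to 5 up with tretinoin and 1 to 3 down in combination against vemurafenib.

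The replicate number was also fitted as a block. Deviations of samples with the same number correlated at -0.20 to 0.14 over 18 pairs, 0 of 12 samples correlated best with its own number, and nothing in the labels ties them. With the replicate block there were 0 members down in combination against vemurafenib, 0 adhesome genes down with tretinoin and 1 laminin receptor and basement membrane gene down in combination against vemurafenib. LAMA4 and LAMB2 were then at 0.30 (adjusted p = 0.0574) and -0.26 (0.102) in that comparison, and ITGA11 was called with the combination at -0.89 (0.0353). Depth limits ITGA11, ITGA2B, ITGAL, ITGAX, LAMA1 and LAMA2 most, with standard errors of 0.31 to 0.44 against DMSO.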
